A study of Mus musculus with 2 samples.

Results

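The 43 genes described here encode the steps that carry glucose to lactate and to carbon dioxide: the glucose transporters, the glycolytic enzymes, lactate dehydrogenase, the lactate transporters, the pyruvate dehydrogenase complex and its kinases, and enzymes of the tricarboxylic acid (TCA) cycle. They were chosen by symbol from a list of these functions, with earlier results of these data known. All 43 were found among the 22609 genes of the deposited tables, and 42 had at least 20 reads over both libraries, which Aldoc did not. TM4 cells, a Sertoli cell line from mouse testis, received either miR-471-5p mimic or a scramble control, and 48 h later the RNA bound to Ago2 was immunoprecipitated and sequenced. Ago2 is the protein in which a miRNA meets its target mRNAs. The files hold 1 library for each of these 2 conditions, so no difference has a replicate check and no p-value is given. The study made the comparison to find mRNAs whose association with Ago2 changes with miR-471-5p. Input RNA was not analysed here, so mRNA abundance and binding to Ago2 cannot be told apart in these ratios, nor can fewer cells and less RNA per cell.

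Sertoli cells feed the germ cells of the testis. They take up glucose, turn most of it into lactate by glycolysis, and export the lactate, which spermatocytes and spermatids burn in their mitochondria. In this route hexokinase traps glucose in the cell, phosphofructokinase commits it to glycolysis, pyruvate kinase yields pyruvate, and lactate dehydrogenase converts pyruvate to lactate. Pyruvate dehydrogenase competes for the same pyruvate and opens the way into the TCA cycle, and its kinases switch it off.

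Reads on genes came to 18628310 with the mimic and 18717225 with scramble. Libraries were scaled with the TMM method, which assumes that most genes do not differ, and ratios are given as log2 of mimic over scramble with an exact 95% interval (Clopper-Pearson) that covers counting error only. Levels are given in CPM, the reads of a gene scaled to the size of its library, and a gene with 0 reads may lie anywhere up to 3 reads, or 0.161 CPM with the mimic and 0.160 with scramble. Of 20 Sertoli cell markers 7 passed the minimum of 20 reads. Vim had 121464 reads with the mimic and 83153 with scramble, Sox9 had 1228 and 1070, and Clu 217 and 163. Of the 7, 2 were at least 1.5-fold higher and 0 lower, beside 11.7% and 9.11% of all genes with that minimum. They were Wt1 with 73 and 35 reads and Inha with 122 and 80. Gata4 with 341 and 365 reads (-0.10, -0.32 to 0.12) and Inhbb with 314 and 380 (-0.28, -0.50 to -0.06) had ratios below 0. Fshr and Krt18 had 0 reads in both, and Amh had 5 in each, so several defining Sertoli markers were at or near 0 in this line. The summed level of the Sertoli markers was 6631 CPM with the mimic and 4569 with scramble, most of it Vim. Of the macrophage markers 1 of 7 passed the minimum and of the Leydig cell markers 1 of 7, with summed levels of 1.61 and 1.93 CPM, and of 4.50 and 4.77 CPM. Fibroblast and smooth muscle genes were uneven, with 37113 and 37188 reads on Col1a1 and 73076 and 101778 on Acta2 (mimic, then scramble). Col1a2 went the other way from Acta2, with 112585 and 81419 reads. Pdgfra had 10231 and 10299 and Tagln 6252 and 6778, while Myh11 had 6 and 6, Des 7 and 7 and Cnn1 11 and 17. The 8 genes of that list summed to 12819 CPM with the mimic and 12728 with scramble. The part of cell identity in the differences below was not tested.

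The transfected miRNA is shown with its seed (nucleotides 2 to 8), by which a miRNA recognises its targets, in capitals. RefSeq places it on the minus strand of the X chromosome (GRCm38.p6) at chrX:66792634-66792655.
miR-471-5p: uACGUAGUauagugcuuuucac

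Most genes of glycolysis and lactate export had more reads in the Ago2 IP library of mimic-transfected cells, while those of pyruvate oxidation and the TCA cycle lay on both sides of an equal level. Of the 21 tested glycolysis and lactate genes 12 were at least 1.5-fold higher and 0 were at least 1.5-fold lower, while 11.7% of all 12186 tested genes were that much higher and 9.11% that much lower. At a fold of 2 the glycolysis and lactate genes were 6 higher and 0 lower, beside 3.96% and 3.08% of all tested genes. Their median log2 ratio was 0.71, with a range from -0.15 in Slc2a3 to 1.91 in Hk2. Of the 21 genes of pyruvate oxidation and the TCA cycle 1 was at least 1.5-fold higher and 1 at least 1.5-fold lower, and their median was -0.04, near the median of all tested genes of -0.00063. A positive ratio was found in 20 of the 21 glycolysis and lactate genes, against 8 of the 21 others. Of all 12186 tested genes 6086 had a positive ratio. The interval lay wholly above 0 in 17 and wholly below 0 in 0 of the glycolysis and lactate genes (31.5% and 32.5% of all tested genes). Summed over genes, glycolysis and lactate took 157525 reads in the mimic library, or 0.846% of reads on genes (exact 95% interval 0.841 to 0.850%), and 93541 in the scramble library, or 0.4998% (0.497 to 0.503%). The sum over pyruvate oxidation and the TCA cycle was 57769 reads, or 0.310% (0.308 to 0.313%), against 57413, or 0.307% (0.304 to 0.309%). The first sum leans on Aldoa, which alone held 42301 of the reads with the mimic and 17660 with scramble.

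**Figure D1:**
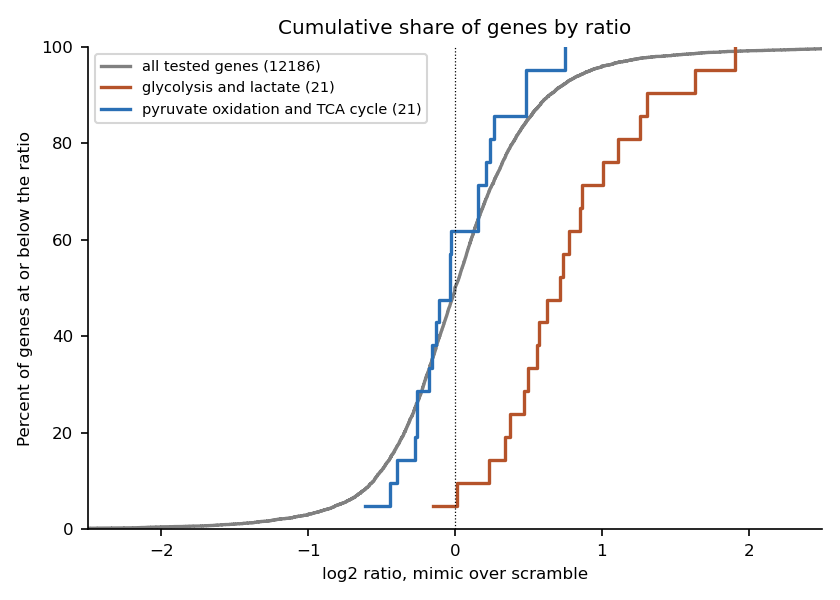
The x axis gives the log2 ratio of mimic over scramble and the y axis the percent of genes at or below it, for all 12186 tested genes (grey), 21 glycolysis and lactate genes (brown) and 21 genes of pyruvate oxidation and the TCA cycle (blue). The brown curve lies to the right of the grey over most of its length, with a median of 0.71, and the blue curve crosses it, with a median of -0.04.

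**Figure D2:**
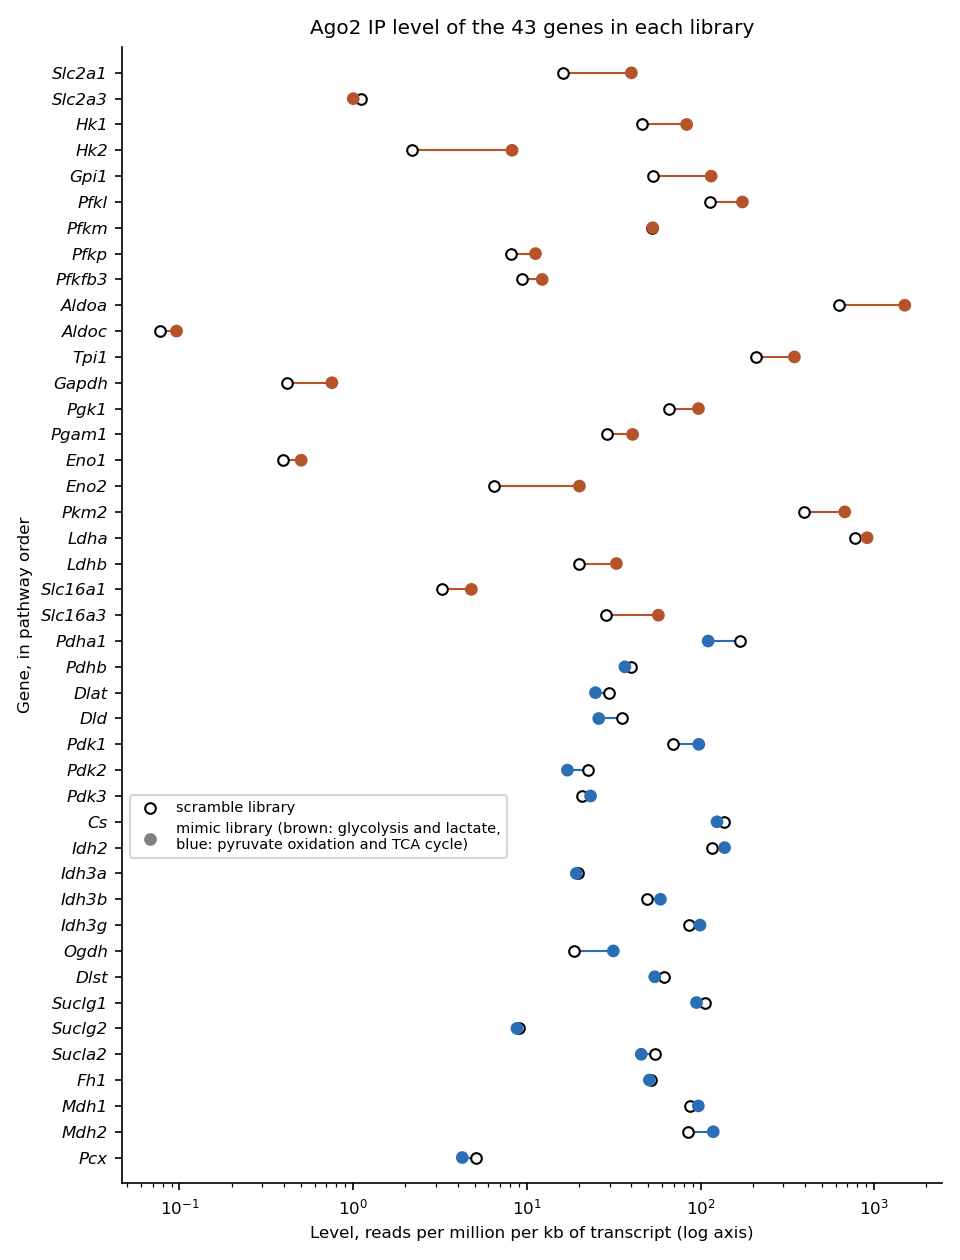
Points give the level of each of the 43 genes in CPM per kb of transcript, on a log axis, with open points for the scramble library and filled points for the mimic library (brown for glycolysis and lactate, blue for pyruvate oxidation and TCA cycle). Levels run from about 0.1 in Aldoc to 1500 in Aldoa, and most brown points lie to the right of their open partner while the blue pairs lie on both sides, with Ogdh, Pdk1 and Mdh2 higher with the mimic and Pdha1 lower.

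Both steps that bring glucose in and trap it held genes with large ratios. Slc2a1, which encodes the glucose transporter GLUT1, had 2434 reads with the mimic and 983 with scramble, a log2 ratio of 1.31 (1.20 to 1.42). Slc2a3, which encodes the high-affinity transporter GLUT3, had 74 and 82 reads, and its ratio of -0.15 (-0.62 to 0.32) was not distinguishable from 0 at this depth. Hk2, the inducible hexokinase that binds mitochondria, had 846 and 225 reads, and its ratio of 1.91 (1.70 to 2.13) was the highest of the 42, a 3.76-fold difference. Hk1, the broadly expressed hexokinase, had 5982 and 3307 reads and a ratio of 0.85 (0.79 to 0.92). Gpi1, the isomerase that follows, had 6201 and 2876 reads and a ratio of 1.11 (1.04 to 1.17). All 3 genes of this step were thus past 1.5-fold, and among all tested genes Hk2 stood at percentile 99.1, Gpi1 at 96.8 and Hk1 at 94.2.

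The phosphofructokinase genes differed among themselves. Pfkl, the liver-type subunit and the most read of them, had 12136 reads with the mimic and 7872 with scramble, a log2 ratio of 0.62 (0.58 to 0.66). Pfkm, the muscle-type subunit, had 2853 and 2820 reads and a ratio of 0.02 (-0.06 to 0.09). Pfkp, the platelet-type subunit, had 868 and 627 reads (0.47, 0.32 to 0.62), and Pfkfb3, the enzyme that makes the activator fructose 2,6-bisphosphate, had 1060 and 816 (0.38). Only Pfkl of these 4 passed 1.5-fold, and its interval reached just below that limit of 0.585.

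The lower glycolytic enzymes had positive ratios throughout, of very different precision. Aldoa, the aldolase of most tissues, had 42301 and 17660 reads and a ratio of 1.26 (1.23 to 1.28). Tpi1, triose phosphate isomerase, had 10420 and 6250 reads (0.74, 0.69 to 0.78), and Pkm2, the row for the muscle-type pyruvate kinase gene Pkm, had 30747 and 17903 (0.78, interval 0.75 to 0.81). Eno2, the neuronal enolase, had 1048 and 338 reads and a ratio of 1.63 (1.45 to 1.81), the highest after Hk2. These 4 genes were past 1.5-fold. Pgk1, phosphoglycerate kinase, had 3317 and 2235 reads (0.57, 0.49 to 0.65), and Pgam1, phosphoglycerate mutase, had 1347 and 953 (0.50, 0.38 to 0.62), so both lay just under that limit. Of the 50-base windows of these transcripts 68.0% in Pgk1, 41.5% in Pgam1, 34.4% in Pkm2 and 13.9% in Aldoa also occurred in other annotated genes, which leaves their counts less certain than the intervals show.

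Gapdh and Eno1, among the most abundant mRNAs of most cells, were almost without reads. Gapdh had 20 reads with the mimic and 11 with scramble, and Eno1 had 19 and 15. Their ratios of 0.86 (-0.27 to 2.07) and 0.34 (-0.71 to 1.42) were not distinguishable from 0, although the first counts among the 12 genes past 1.5-fold. Multiply aligned reads were given to no gene, and 82.5% of the 50-base windows of the Gapdh transcript, and 72.2% of those of Eno1, occurred in transcripts of other annotated genes. For Gapdh the other genes numbered 222 and the shared windows all lay in annotated pseudogenes. For Eno1 the closest was Eno1b, the row Gm5506, which had 937 and 630 reads and a log2 ratio of 0.57 (0.42 to 0.72). Of the windows of Eno1b itself 84.5% occurred in other annotated genes. The levels of Gapdh, Eno1 and Eno1b in this series are therefore uncertain.

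The last steps of lactate production and export split by isozyme and by transporter. Ldha, the subunit that favours lactate production, had 30021 reads with the mimic and 25511 with scramble and a log2 ratio of 0.23 (0.21 to 0.26). Ldhb, the subunit that favours the reverse reaction, had 798 and 486 reads and a ratio of 0.71 (0.55 to 0.88). Slc16a3, which encodes the lactate exporter MCT4, had 4632 and 2298 reads and a ratio of 1.01 (0.94 to 1.08). Slc16a1, which encodes MCT1, had 396 and 269 reads and a ratio of 0.56 (0.33 to 0.79). In the scramble library the levels per length were highest for Ldha at 774, Aldoa at 626 and Pkm2 at 395 CPM per kb, and in the mimic library for Aldoa at 1500, Ldha at 911 and Pkm2 at 677. The order of Ldha and Aldoa thus differed between the libraries, and Gapdh and Eno1 cannot be placed in it.

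**Figure D3:**
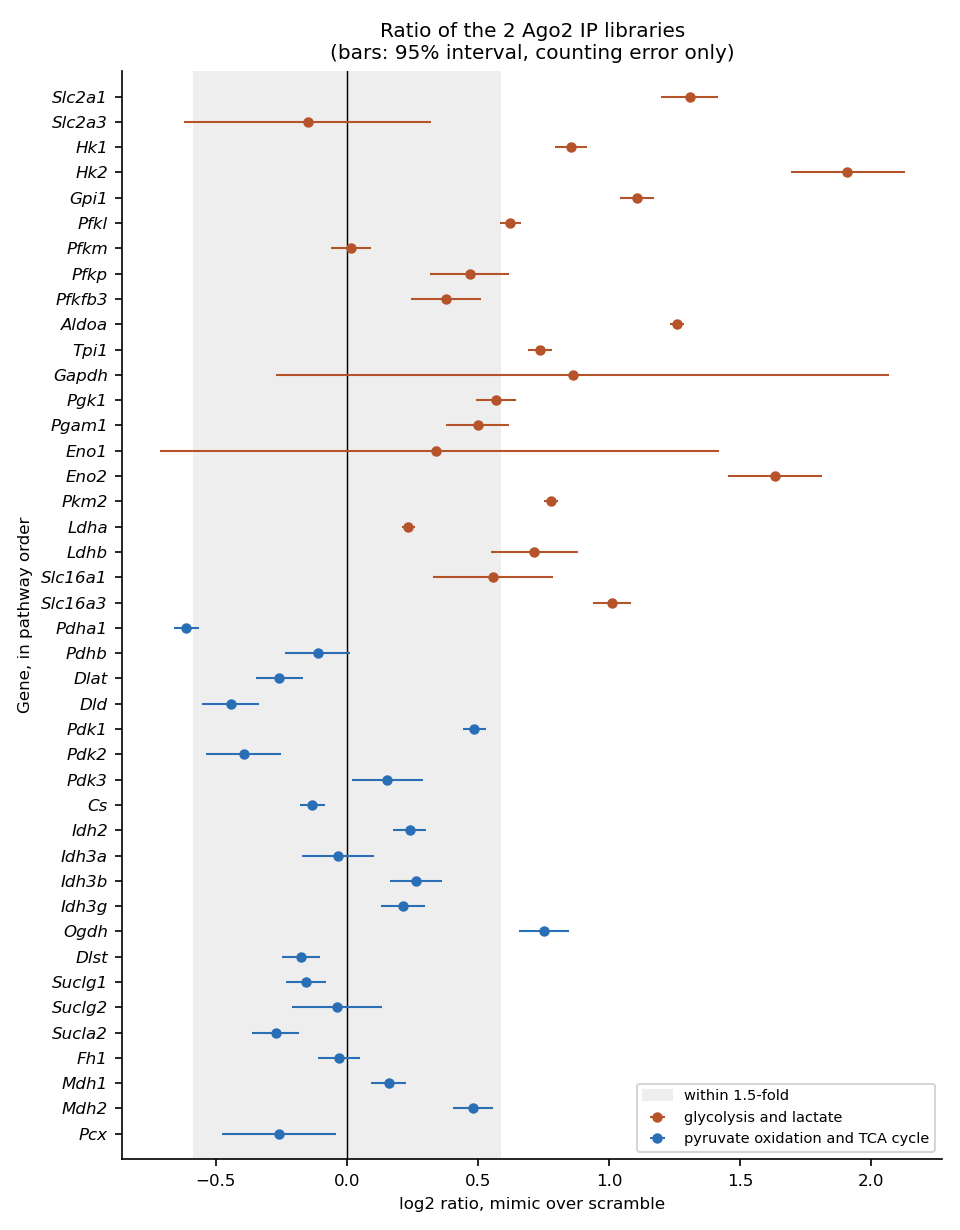
Points give the log2 ratio of mimic over scramble of the 42 tested genes in pathway order, with bars for the exact 95% interval (counting error only) and a grey band for differences within 1.5-fold. Glycolysis and lactate genes (brown) lie to the right of 0 except Slc2a3, from -0.15 to 1.91, and pyruvate oxidation and TCA cycle genes (blue) lie on both sides, from -0.61 in Pdha1 to 0.75 in Ogdh. The wide bars of Gapdh and Eno1 reflect their few reads.

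All 4 subunits of the pyruvate dehydrogenase complex had ratios below 0, 3 of them with an interval that excluded 0. Pdha1, the catalytic E1 alpha subunit, had 5882 reads with the mimic and 8989 with scramble, and its log2 ratio of -0.61 (-0.66 to -0.56) was the lowest of the 42. Dld, the E3 subunit, had 1232 and 1675 reads (-0.44, -0.55 to -0.34), and Dlat, the E2 core, had 1871 and 2237 (-0.26, -0.35 to -0.17). Pdhb, the E1 beta subunit, had 1036 and 1119 reads and an interval that included 0 (-0.24 to 0.01). The kinases that switch the complex off did not move together. Pdk1 had 9465 and 6752 reads (0.49, 0.44 to 0.53), Pdk3 had 919 and 825 (0.16, 0.02 to 0.29), and Pdk2 had 718 and 943 (-0.39, -0.54 to -0.25). Pdk1 was also the most abundant kinase, at 97.8 CPM per kb in the mimic library against 17.1 for Pdk2 and 23.3 for Pdk3.

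Enzymes of the TCA cycle had ratios between -0.27 in Sucla2 and 0.48 in Mdh2, apart from Ogdh. Cs, citrate synthase, had 6795 and 7444 reads (-0.13, -0.18 to -0.08). The mitochondrial NADP-dependent enzyme Idh2 had 4484 and 3794 reads (0.24), and the NAD-dependent subunits Idh3a, Idh3b and Idh3g had ratios of -0.03, 0.26 and 0.21. Ogdh, the E1 subunit of the 2-oxoglutarate dehydrogenase complex, had 2424 and 1440 reads and a ratio of 0.75 (0.66 to 0.85), the only gene of the cycle past 1.5-fold. Its partner Dlst, the E2 subunit, had 2813 and 3174 reads (-0.17, -0.25 to -0.10), so the subunits of this complex lay on opposite sides of 0. The succinyl-CoA ligase genes had ratios below 0. Suclg1, the shared alpha subunit, had 2689 and 2994 reads (-0.16, -0.23 to -0.08), Sucla2, the ATP-forming beta subunit, 1896 and 2288 (-0.27, -0.36 to -0.18), and Suclg2, the GTP-forming beta subunit, 551 and 565 (-0.04, -0.21 to 0.14). Fh1, fumarase, had 2498 and 2550 reads (-0.03), Mdh1, the cytosolic malate dehydrogenase, 3849 and 3445 (0.16, 0.09 to 0.23), Mdh2, the mitochondrial enzyme, 3218 and 2305 (0.48, 0.40 to 0.56), and Pcx, pyruvate carboxylase, 322 and 385 (-0.26, -0.48 to -0.04). Of the 21 genes of pyruvate oxidation and the TCA cycle 8 had an interval wholly above 0 and 9 wholly below it. Over all tested genes these shares were 31.5% and 32.5%.

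Isozymes of the same step were compared by the ratio of their reads within each library, which needs no scaling between libraries. For 12 of 14 pairs the exact 95% interval of the ratio of ratios excluded 1, which at these depths needs only a small difference. Slc2a1 over Slc2a3 was 2.74 times as high in the mimic library (1.96 to 3.84), and Hk2 over Hk1 was 2.08 times as high (1.78 to 2.43). Per length, Hk2 was still the minor hexokinase, at 0.0988 of the level of Hk1 with the mimic and 0.0475 with scramble. The phosphofructokinase balance lay further towards Pfkl in the mimic library, with Pfkl over Pfkm 1.52 times as high (1.44 to 1.62). Ldha over Ldhb was lower, at 0.717 of its value in the scramble library (0.638 to 0.804), and per length Ldha exceeded Ldhb 27.8-fold in the mimic library and 38.8-fold in the scramble library. Slc16a3 over Slc16a1 was 1.37 times as high (1.16 to 1.62) and Pdk1 over Pdk2 was 1.84 times as high (1.66 to 2.04). Mdh1 over Mdh2 was lower, at 0.800 (0.745 to 0.859). Eno1 over Eno2 was the lowest pair, at 0.409 (0.194 to 0.875), but rests on the 19 and 15 reads of Eno1, whose count is uncertain. Aldoa over Aldoc could not be resolved, because Aldoc had 5 reads with the mimic and 4 with scramble, and Pfkp over Pfkl had an interval that reached 1 (0.806 to 1.001).

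**Figure D4:**
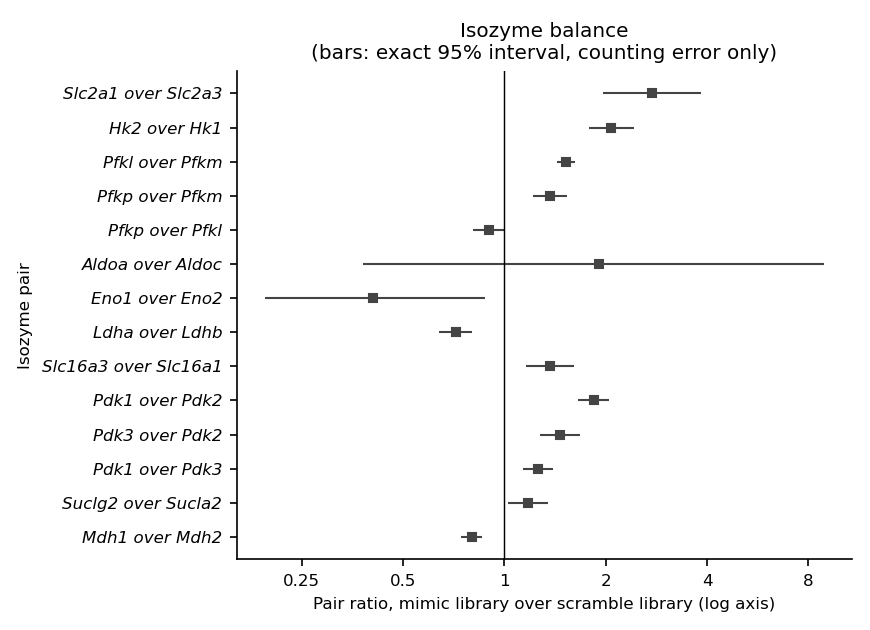
Squares give, for 14 isozyme pairs, the ratio of the reads of the 2 genes in the mimic library divided by that in the scramble library, on a log axis, with bars for the exact 95% interval (counting error only). Slc2a1 over Slc2a3 at 2.74 and Hk2 over Hk1 at 2.08 lie furthest to the right among pairs with narrow bars, and Eno1 over Eno2 at 0.409 with a wide bar, Ldha over Ldhb at 0.717, Mdh1 over Mdh2 at 0.800 and Pfkp over Pfkl at 0.898 lie left of 1.

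Other genes of the same pathways were counted from lists chosen by function. Of 12 tested further genes of glycolysis and lactate transport 3 were at least 1.5-fold higher and 0 lower, beside 11.7% and 9.11% of all tested genes. Their median log2 ratio was -0.03, so the whole list did not share the direction of the 21 genes above. The 3 were Bsg, or basigin, the chaperone that brings MCT1 and MCT4 to the membrane, with 6459 and 2510 reads (1.36, 1.30 to 1.43), Emb, or embigin, a related chaperone of monocarboxylate transporters, with 1040 and 651 (0.68), and Slc2a10, which encodes GLUT10, with 182 and 114 (0.67). Eno3, the muscle enolase, had 1178 and 1585 reads (-0.43), and Pfkfb4 had 457 and 644 (-0.50). Of 22 further genes of pyruvate metabolism and the TCA cycle 1 was at least 1.5-fold higher and 4 lower, beside the same 11.7% and 9.11%. The higher gene was Sdhaf1, an assembly factor of succinate dehydrogenase, with 96 and 62 reads (0.63, 0.15 to 1.11). Among the lower genes were 2 of pyruvate dehydrogenase phosphatase, which reverses the kinases, namely the regulatory subunit Pdpr with 18 and 80 reads (-2.15, -2.98 to -1.40) and the catalytic subunit Pdp2 with 45 and 134 (-1.57, -2.10 to -1.08). The other phosphatase gene, Pdp1, had 1101 and 1593 reads (-0.53). The remaining lower genes were the cytosolic enzymes Idh1 with 1840 and 3281 reads (-0.84, -0.92 to -0.75) and Aco1 with 1397 and 2463 (-0.82, -0.91 to -0.72). The succinate dehydrogenase subunits Sdha, Sdhb, Sdhc and Sdhd had ratios of -0.15, 0.42, 0.22 and 0.50.

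Reads on germ cell versions of these enzymes were few, except where a retrogene resembles Aldoa. Ldhc had 88 reads with the mimic and 102 with scramble, Pgk2 had 29 and 46, Gapdhs 42 and 28, and Pdha2 43 and 57. Aldoart1 and Aldoart2, retrogenes of Aldoa, had 1699 and 805 reads (1.08, 0.96 to 1.20) and 2499 and 1050 reads (2.38-fold, log2 interval 1.15 to 1.36), beside the 2.39-fold of Aldoa. Of the 50-base windows of Aldoa 6.43% were identical in Aldoart1, so the count of Aldoart1 is uncertain. Aldoart2 shared 0.311% of its windows with other annotated genes. Only identical windows were sought and the read length is not given, so the count of Aldoart2 is uncertain too. Whether reads of Aldoa were placed on it at imperfect matches was not tested.

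Shared sequence touched many of the glycolytic genes. Of the 43 transcripts 24 had no 50-base window in common with another annotated gene, and 13 shared over 10% of their windows: Gpi1, Pfkp, Aldoa, Gapdh, Pgk1, Pgam1, Eno1, Pkm2, Ldha, Ldhb, Pdha1, Pdhb and Suclg2. For Pdha1 the shared windows lay mostly in the neighbouring gene Map3k15 and for Pfkp in its neighbour Pitrm1, and the annotated ends of these genes overlap. Without these 13 genes, 7 of 11 glycolysis and lactate genes were at least 1.5-fold higher, with a median log2 ratio of 0.74. The same held for 1 of 18 genes of pyruvate oxidation and the TCA cycle, with a median of -0.03, and for 11.7% of all tested genes. The 7 were Slc2a1, Hk1, Hk2, Pfkl, Tpi1, Eno2 and Slc16a3.

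Transcript length and GC content moved with the ratio over all tested genes. The median log2 ratio was 0.34 in the quintile of genes with the shortest transcripts, up to 1777 nt, and -0.22 in the quintile with the longest, and it was -0.12 in the quintile with the lowest GC content and 0.13 in that with the highest. The glycolysis and lactate genes had a median transcript length of 2879 nt and a median GC content of 53.5%, and the genes of pyruvate oxidation and the TCA cycle 2403 nt and 47.7%, against 3059 nt and 50.4% over all tested genes with an annotated transcript. Within the shortest quintile the 6 glycolysis and lactate genes had a median of 0.73 and the 6 others 0.23, and in the next quintile by length the medians were 0.57 for 3 genes and -0.15 for 6. A regression on coding length, 3′-UTR length and GC content explained 17.2% of the variance of the ratio over 11755 genes. After it, 12 of the 21 glycolysis and lactate genes were at least 1.5-fold higher, beside 8.80% of all genes in the fit. The median of the 21 was 0.68. The 12 were not all the same genes as before. Tpi1 at 0.57 and Ldhb at 0.51 fell under the limit, and Pfkp at 0.68 and Slc16a1 at 0.76 passed it. For pyruvate oxidation and the TCA cycle 2 of 21 were higher, and the median was -0.002. Hk2, the longest glycolysis and lactate transcript, had a ratio of 2.16 after the regression, and Aldoa, a short transcript, 1.01 in place of 1.26.

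**Figure D5:**
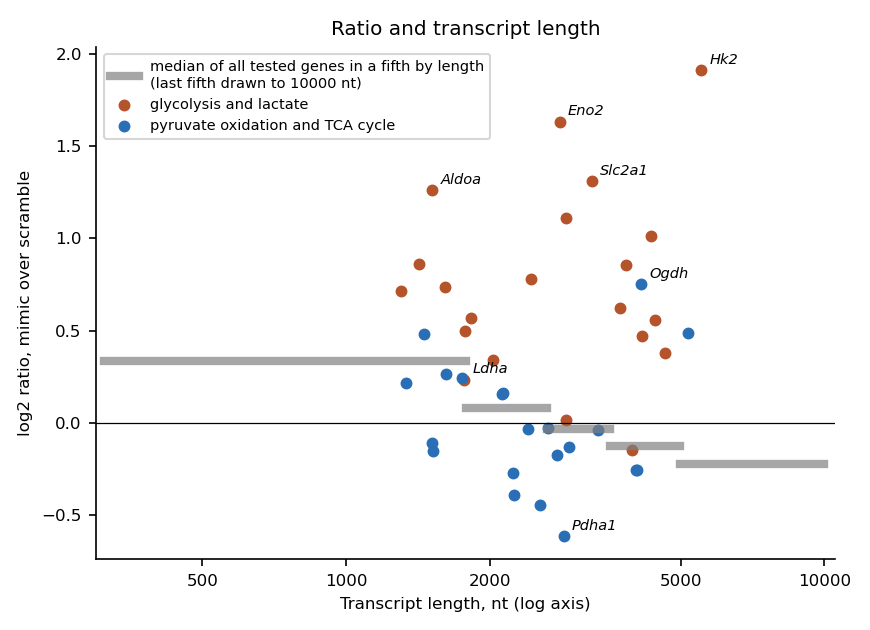
Points give the transcript length (nt, log axis) and log2 ratio of mimic over scramble of glycolysis and lactate genes (brown) and of pyruvate oxidation and TCA cycle genes (blue), and grey bars the median ratio of all tested genes in each quintile by length. The grey bars step down from 0.34 to -0.22, and most brown points lie above the bar at their length while blue points lie near it on both sides.

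Matches to the miR-471-5p seed were counted in these genes beside the share over all tested genes. With 42 genes, a count of 0 or 1 cannot show that matches were fewer than over all genes. The letters ACTACGT, which pair with nucleotides 2 to 8, occurred in 0 of the 42 3′-UTRs of the tested genes, where 1.43% of all tested genes with a 3′-UTR had a match. The shorter letters CTACGT, which pair with nucleotides 2 to 7, occurred in the 3′-UTR of Eno2 alone among the 42 (6.08% over all tested genes). In coding regions CTACGT occurred in 6 of the 42 genes (16.2% over all), namely Slc2a1, Slc2a3, Pfkl, Pkm2, Ldha and Slc16a1, and ACTACGT in Slc2a3 (4.34% over all). The sites of Eno2, with the second highest ratio, of Slc2a1, and of Slc2a3, whose ratio was below 0, are shown on the mRNA strand with the match in capitals, in GRCm38; where an A follows CTACGT it is part of the longer match. The genes with a coding match had ratios from -0.15 in Slc2a3 to 1.31 in Slc2a1.
Eno2, 3′-UTR, chr6:124760165-124760170, minus strand: gacagggtttCTACGTgtagccctgg
Slc2a1, coding region, chr4:119132621-119132626, plus strand: acctacagctCTACGTggagccctag
Slc2a1, coding region, chr4:119136260-119136265, plus strand: tgtgcggcccCTACGTcttcatcatc
Slc2a3, coding region, chr6:122735484-122735490, minus strand: aggtcacccaACTACGTccagccgctt
Slc2a3, coding region, chr6:122731543-122731549, minus strand: ctatcttgatCTACGTAgccttctttg
Slc2a3, coding region, chr6:122730121-122730126, minus strand: acttaggagcCTACGTttttatcatc

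Promoters were searched for ACGTG on either strand, the core of the hypoxia response element, which many glycolytic genes are known to carry. RefSeq windows from 250 bases before to 50 after the start (GRCm38.p6) were matched for 41 of the 43 genes. At least 1 promoter held the letters in 14 of the 21 glycolysis and lactate genes with a window and in 7 of 20 genes of pyruvate oxidation and the TCA cycle, against 29.5% of the tested genes with a window. Counted by promoter, the shares were 51.5%, 42.9% and 25.3%. The 42.9% stands for 12 of 28 promoters and leans on Ogdh, which has 6 promoters, all 6 with the letters. The longer E-box CACGTG, which contains the letters on both strands, was in 12.1%, 17.9% and 9.98%. The 250 bases before the start are shown for Hk2, Slc2a1 and Slc16a3, which had high ratios and hold the letters, for Eno2, which had a high ratio and does not, and for Pdha1, which had the lowest ratio and does not hold them in this stretch, with matches in capitals. At least 1 promoter also held the letters in Pfkm, Pfkfb3, Pgk1, Pgam1, Ldha and Slc16a1, which were within 1.5-fold. No promoter held them in Gpi1, Pfkl, Tpi1, Ldhb or Eno2, which were at least 1.5-fold higher. A link between the letters and the ratio was not tested. No data on factor binding were analysed here, and a match is a description of the sequence.
Hk2, chr6:82774455-82774704, minus strand: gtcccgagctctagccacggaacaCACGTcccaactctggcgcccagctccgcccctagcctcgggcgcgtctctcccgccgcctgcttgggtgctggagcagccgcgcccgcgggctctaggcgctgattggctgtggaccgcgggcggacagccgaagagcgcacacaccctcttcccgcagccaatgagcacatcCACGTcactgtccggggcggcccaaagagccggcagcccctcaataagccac
Slc2a1, chr4:119108495-119108744, plus strand: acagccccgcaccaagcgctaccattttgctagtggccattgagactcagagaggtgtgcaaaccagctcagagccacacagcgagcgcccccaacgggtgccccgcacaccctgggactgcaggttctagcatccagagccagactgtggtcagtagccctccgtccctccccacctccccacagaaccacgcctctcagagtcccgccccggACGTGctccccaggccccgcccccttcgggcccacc
Slc16a3, chr11:120948817-120949066, plus strand: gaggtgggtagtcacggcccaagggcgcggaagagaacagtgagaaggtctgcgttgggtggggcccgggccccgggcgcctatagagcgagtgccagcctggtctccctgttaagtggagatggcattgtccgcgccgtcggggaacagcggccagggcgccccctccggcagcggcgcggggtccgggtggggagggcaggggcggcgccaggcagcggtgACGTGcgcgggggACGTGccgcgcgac
Eno2, chr6:124769674-124769923, minus strand: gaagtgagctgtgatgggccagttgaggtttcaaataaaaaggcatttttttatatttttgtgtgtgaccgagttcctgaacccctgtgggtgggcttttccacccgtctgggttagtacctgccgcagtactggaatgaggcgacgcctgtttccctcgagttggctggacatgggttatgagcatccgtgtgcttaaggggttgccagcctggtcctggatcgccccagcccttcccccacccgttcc
Pdha1, chrX:160138431-160138680, minus strand: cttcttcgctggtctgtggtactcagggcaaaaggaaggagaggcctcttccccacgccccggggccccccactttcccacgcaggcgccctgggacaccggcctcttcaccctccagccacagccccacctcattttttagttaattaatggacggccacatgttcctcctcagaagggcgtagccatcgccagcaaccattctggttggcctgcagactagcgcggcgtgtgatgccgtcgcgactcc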

How the data were processed

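Ago2 IP RNA from TM4 cells was sequenced by the authors from Illumina TruSeq libraries, 1 for each of 2 conditions, 48 h after transfection. The authors deposited raw counts of reads per gene symbol, 1 table per library, in the layout of HTSeq. The submitters' processing notes name CASAVA 1.8.2, TopHat2 2.0.8b, HTSeq and the mm9 build. The annotation, strandedness and read length are not given in the sources used here. The 5 summary rows were kept out of all totals. Alignments to several places made up 39.8% of entries with the mimic and 35.6% with scramble and were given to no gene, which lowers the counts of genes with copies. Reads outside genes were 6.84% and 7.89%, and those overlapping more than one gene 0.653% and 0.585%.

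Groups were taken from the treatment labels. Genes whose counts summed to 20 or more were tested for size of difference only (12186 of the 15973 with any count). TMM factors from edgeR 4.0.16 under R 4.3.3 were 1.003 (mimic) and 0.997 (scramble), and a gene was called at a fold of 1.5 in either direction. Intervals of 95% come from the mimic share of a gene's counts (Clopper-Pearson), and for isozyme pairs from the exact conditional odds ratio. They cover counting error only. Calculations on counts were tested on simulated data. Transcript features come from GENCODE M21 (GRCm38), taking the APPRIS principal transcript, then the longest coding region. Of the tested genes 11756 (96.5%) and all 43 genes described were matched by symbol or, for Pkm2, by RefSeq synonym. No coordinate was converted from mm9. Windows of 50 bases identical on either strand were sought in all other GENCODE transcripts, and genome sequence outside transcripts was not searched. Levels are CPM per kb of that transcript. Python 3.11.15, numpy 2.4.6, scipy 1.17.1, pandas 2.3.3 and matplotlib 3.10.9 were used.

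The alternatives were DESeq2 1.42.0 size factors, total counts, no count minimum or 200, a smaller fold (log2 ratio of 0.322) and a fold of 2, intervals wholly past the fold, and the regression on transcript features. Values were given in full for the 5 highest and 5 lowest of the 43 genes, for isozyme pairs and for the genes with the highest level per kb, and other genes come from lists by function. The 43 genes and the lists were chosen with earlier results of these data known.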

Additional observations from a re-analysis of the deposited data

Results flagged for a closer look

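Alignments to several places were set apart because they lie outside the counts on genes and made up a larger share with the mimic. They were 39.8% of entries with the mimic and 35.6% with scramble, or 14095378 against 11915725 alignments. How many of them belong to Gapdh, Eno1, Pgk1 or other genes with copies cannot be read from the tables, and their part in the ratios of those genes was not tested.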

How the results depend on the processing

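The counts of genes followed the fold chosen. With the smaller fold (log2 ratio of 0.322) there were 21 higher and 3 lower genes in place of 13 and 1. Of all 12186 tested genes 2928 were higher and 2629 lower at that fold. At a fold of 2 there were 6 and 0 of the 42, beside 3.96% and 3.08% of all tested genes. With the counting interval wholly past 1.5-fold there were 10 and 0, and the lower gene lost was Pdha1, whose interval reached -0.56. The share of all tested genes past this stricter limit was not counted. After the regression on lengths and GC content, or on these and abundance, 0 genes were lower and 14 and 13 were higher. The median log2 ratio of all 42 was 0.150 and 0.153 in place of 0.302. Of all genes in the first regression 8.8% were higher and 7.2% lower after it, and with abundance these shares were not counted. Without the 13 genes that share over 10% of their 50-base windows, 8 of 29 were higher and 0 lower, beside 11.7% and 9.11% of all tested genes. The share of gene reads on the 43 genes was 1.43 times as high in the mimic library, 1.35 times when taken over all entries and 1.30 times without Aldoa. The abundance term and both omissions were chosen after seeing the data. The median of the glycolysis and lactate genes lay between 0.592 and 0.737 in all settings run, and that of pyruvate oxidation and the TCA cycle between -0.0401 and 0.0182. DESeq2 size factors or total counts moved no gene's log2 ratio by more than 0.0075 and turned no sign. No paired analysis was possible because each condition has 1 library and the labels carry no replicate numbers. Depth limits Gapdh, Eno1, Aldoc and Slc2a3.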

Other observations

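Regulators of glycolysis and its side branches were measured in the same libraries. Egln1, which encodes the oxygen-sensing hydroxylase PHD2, had 8936 reads with the mimic and 3019 with scramble, a log2 ratio of 1.56 (1.51 to 1.62). Egln3, which encodes PHD3, had 1288 and 567 reads (1.18, 1.04 to 1.33), and Vhl, the ubiquitin ligase subunit that binds hydroxylated HIF-1 alpha, had 1503 and 949 (0.66, 0.54 to 0.78). These were the 3 of 16 tested regulators at least 1.5-fold higher, and 0 were that much lower, beside 11.7% and 9.11% of all tested genes. The median of the 16 was -0.14. Hif1a itself had 3880 and 4658 reads (-0.26, -0.33 to -0.20) and its partner Arnt 2550 and 3086 (-0.28). Myc had a ratio of 0.11, and Txnip, which restrains glucose uptake, had 13178 and 16146 reads (-0.29).

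The pentose phosphate pathway, which branches off at glucose 6-phosphate, lay near the median of all genes. Of its 8 genes 1 was at least 1.5-fold higher, beside 11.7% of all tested genes, and the median was 0.10. That gene was Pgls with 1233 and 735 reads (0.75, 0.61 to 0.88). G6pdx, which starts the pathway, had 3092 and 2940 reads (0.07), and Tkt, transketolase, had 4034 and 3283 (0.30). Of 8 genes of the shuttles that carry reducing power into mitochondria, 1 was at least 1.5-fold higher, beside the same 11.7%. It was Gpd1 with 14 and 8 reads, whose interval included 0 (-0.55 to 2.27). Germ cell markers summed to 12.7 CPM with the mimic and 13.3 CPM with scramble. Of the 5 tested, 0 were at least 1.5-fold higher and 1 lower, beside 11.7% and 9.11% of all tested genes. The lower gene was Ddx4 with 46 and 74 reads (-0.69, -1.25 to -0.14). The other 4 had ratios above 0, among them Sycp3 with 58 and 48 reads.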
